A study of Mus musculus with 6 samples.

Results

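The loci of 7 genes of neural fate, Sox1, Otx2, Pax6, Neurog2, Neurod1, Olig2 and Nes, were followed in Hi-C contact maps of mouse embryonic stem (ES) cells. They are 7 of 20661 autosomal protein-coding genes in the RefSeq table of the build. Each was taken at the 50 kb bin that holds its start on mm10, together with the bins up to 1 Mb on either side, a window of 41 bins. The genes were chosen for their known function, with earlier results of these data known. Hi-C counts how often any 2 stretches of DNA are ligated together in crosslinked nuclei, so a count rises with how often they lie close to each other. The cells labelled Del8 are strain 129 ES cells with the genotype GFP-CTCF-Del8, a GFP-tagged CTCF from which zinc finger 8 is missing, and gave 3 libraries. The other cells are strain 129 ES cells labelled wild type (WT), also with 3 libraries. The series' design text says that the cells compared with the mutant express GFP-CTCF, so whether the WT libraries carry the tag is not settled by the labels. The sources used here do not say how the mutant protein was brought into the cells or whether the endogenous CTCF genes remain. The design text calls the replicates biological, and no label says which cultures or clones they came from. Transcription was not analysed here, so neither the identity of the cells nor the activity of the 7 genes could be checked.

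CTCF is a DNA-binding zinc finger protein that halts the cohesin complex as it extrudes chromatin loops. Sites bound by CTCF thereby come to mark the borders of topological domains, inside which a gene meets its enhancers more often than outside. Neural fate genes are known for long-range control: Pax6 has enhancers inside the neighbouring gene Elp4, and Sox1 and Otx2 lie beside gene-poor stretches. In undifferentiated ES cells most of the 7 are known to be kept at low activity. Otx2 differs in that it is also known for its part in the exit of ES cells from the naive state.

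The promoters of Sox1, Pax6 and Neurog2 are shown because contact across the gene start, described below, changed most at these genes. Nes, not shown, had more single contacts that passed a test than Neurog2. Each runs from 250 bases before to 50 bases after a start in RefSeq on GRCm38.p6, all on the plus strand: Sox1 at chr8:12395269-12395568, Pax6 at chr2:105668646-105668945 (the first of its 2 listed starts) and Neurog2 at chr3:127632886-127633185. Capitals mark CCCTC, the letters from which CTCF takes its name, or GAGGG, the same letters on the other strand.
Sox1: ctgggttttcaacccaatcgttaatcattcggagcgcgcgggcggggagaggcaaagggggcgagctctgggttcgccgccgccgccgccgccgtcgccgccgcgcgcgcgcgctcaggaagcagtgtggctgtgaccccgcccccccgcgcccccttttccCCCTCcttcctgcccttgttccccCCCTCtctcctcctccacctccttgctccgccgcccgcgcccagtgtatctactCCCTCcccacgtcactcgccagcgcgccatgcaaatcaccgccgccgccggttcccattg
Pax6: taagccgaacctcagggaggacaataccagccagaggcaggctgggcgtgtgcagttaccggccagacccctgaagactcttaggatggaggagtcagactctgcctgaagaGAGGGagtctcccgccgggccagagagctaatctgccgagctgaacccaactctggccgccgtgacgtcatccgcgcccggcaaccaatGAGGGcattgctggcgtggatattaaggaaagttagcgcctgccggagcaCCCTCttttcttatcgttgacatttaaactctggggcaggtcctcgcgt
Neurog2: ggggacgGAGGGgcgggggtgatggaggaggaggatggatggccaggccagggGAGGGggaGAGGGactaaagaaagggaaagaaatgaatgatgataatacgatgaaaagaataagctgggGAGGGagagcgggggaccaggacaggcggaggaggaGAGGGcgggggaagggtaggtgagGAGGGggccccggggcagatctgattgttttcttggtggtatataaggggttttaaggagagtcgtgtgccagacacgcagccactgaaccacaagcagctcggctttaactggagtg
The Sox1 promoter had 3 such matches, that of Pax6 also 3, and that of Neurog2 had 6, of which all 6 read GAGGG. The promoters of Olig2, Neurod1 and Nes, likewise on GRCm38.p6, had 4, 3 and 1. All 7 genes were found in the promoter table, and the letters occurred in 66.0% of its 32851 promoters. The 4 listed promoters of Otx2 had 1 to 3, and the second listed Pax6 promoter had 1. The Sox1 promoter held 37 CG dinucleotides and that of Neurog2 held 10, against a median of 7 per promoter of 300 bases. These are descriptions of the letters in these windows, not of CTCF binding.

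The 6 libraries held from 38088173 to 66266759 contacts in Del8 and from 24038030 to 36233407 in WT. In WT replicates 1 and 2, 38.1% and 38.7% of the 47875 autosomal bins had lost much of their coverage, and in the other 4 libraries at most 11.6%, so only the 28243 bins covered in every library were used. WT replicate 3 stands apart from the other WT libraries, and over the usable bins its coverage was nearer to that of the Del8 libraries (chi-square per degree of freedom 2.52 to 2.89) than to that of WT replicates 1 and 2 (5.76 and 6.26). For the scores of the gene bins and for pairs of 50 kb bins, values with it alone on the WT side are therefore also given where that ends a call or moves a value by more than 1.5 times. The start bins of all 7 genes were covered. Of the 41 bins of a window, all 41 were usable at Sox1 and Olig2, 39 at Nes, 36 at Otx2, 31 at Pax6, 22 at Neurog2 and 10 at Neurod1. Coverage of the Sox1 bin was 2.32 to 2.39 times the library's scale in Del8 and 2.33 to 2.48 times in WT, and chromosome 8, where it lies, was raised in all 6 libraries, with 1.27 to 1.28 times that scale in Del8 and 1.30 to 1.38 times in WT. Contacts were therefore always set against the mean of the same chromosome.

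Contact across the gene starts was read from the insulation score, which compares the balanced contact in a 500 kb square spanning a bin with the chromosome's mean, on the log2 scale. A high score is found inside a domain and a low score at a border. In Del8 cells contact across the start was lower at Pax6, Sox1, Otx2 and Olig2 and higher at Neurog2 and Nes. All 6 genes with a score passed the test (limma, Benjamini-Hochberg adjusted p under 0.05), 2 higher and 4 lower. With a looser screen that keeps partly lost bins none of the 6 passed (limma adjusted p from 0.248 to 0.411), and the difference at Otx2 was of the opposite sign, 0.50. Over all 23555 bins with a score 58% passed, 30.6% higher and 27.4% lower in Del8, and the groups did not overlap in 65.3% of bins. Passing was thus common among bins, and the counts do not set the neural genes apart. The size of the change did differ between them: 97.3% of all bins changed less than the Pax6 bin and 92.2% less than the Neurog2 bin, while Nes and Olig2, at 47.3% and 48.5%, lay near the middle.

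Pax6, a paired-box homeodomain factor of the eye and the cortical progenitors, lies on chromosome 2 at 105668896 to 105698410 on the plus strand. Its score was 0.31, 0.41 and 0.40 in Del8 replicates 1 to 3 and 0.87, 0.86 and 0.63 in WT replicates 1 to 3. All Del8 libraries were below all WT libraries, and WT replicate 3 was nearer to them than the other WT libraries were. The difference was -0.42 (SE 0.0649, limma adjusted p = 0.000976), a contact across the bin of 0.748 times that of WT. With WT replicate 3 alone on the WT side it was -0.26 (limma adjusted p = 0.00226). Neurog2, a proneural basic helix-loop-helix factor that starts neuronal differentiation, lies on chromosome 3 at 127632733 to 127635636 on the plus strand. It scored 0.30, 0.36 and 0.31 in Del8 and -0.04, 0.0064 and 0.05 in WT. Here every Del8 library was higher than every WT library, by 0.31 on average (SE 0.0319, limma adjusted p = 0.000151), a 1.24-fold contact across the bin.

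Sox1, a SoxB1 factor and an early mark of the neuroectoderm, lies on chromosome 8 at 12395519 to 12399555 on the plus strand. Its bin scored 0.20, 0.17 and 0.15 in Del8 and 0.37, 0.33 and 0.39 in WT. The groups were well apart, with a difference of -0.19 (SE 0.0277, limma adjusted p = 0.000809) and a contact of 0.879 times that of WT. Olig2, a basic helix-loop-helix factor of oligodendrocyte and motor neuron precursors, lies on chromosome 16 at 91225550 to 91228677. Its bin scored 0.18, 0.16 and 0.15 in Del8 and 0.26, 0.26 and 0.30 in WT, a difference of -0.11 (SE 0.0256, limma adjusted p = 0.00646). The groups did not overlap, and contact across the bin was 0.926 times that of WT.

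Otx2, a homeodomain factor of the forebrain and midbrain, lies on the minus strand of chromosome 14 at 48656781 to 48667644. Its bin scored 0.37, 0.40 and 0.33 in Del8 and 0.49, 0.59 and 0.41 in WT. The lowest WT value stood just above the highest Del8 value, and the difference was -0.13 (SE 0.0450, limma adjusted p = 0.0344). It did not pass without any 1 of WT replicates 1 and 2 and Del8 replicates 1, 2 and 3, with limma adjusted p from 0.0568 to 0.109, and it was -0.05 with WT replicate 3 alone. Nes codes for nestin, the intermediate filament protein of neural progenitors, and lies on chromosome 3 at 87971093 to 87980451 on the plus strand. Its bin had the lowest scores of the set, -0.51, -0.46 and -0.48 in Del8 and -0.60, -0.61 and -0.57 in WT. The groups did not overlap, and the score was higher in Del8 by 0.11 (SE 0.0281, limma adjusted p = 0.0116). It did not pass with a 250 kb square (0.03), with a 1 Mb square (0.06) or with WT replicate 3 alone (0.09). Neurod1, a basic helix-loop-helix factor of neuronal differentiation on the minus strand of chromosome 2 at 79452637 to 79456636, had no score because too few bins around it were covered in all libraries.

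The order of the genes also differed between the lines. In Del8 it ran, from low to high, Nes, Olig2, Sox1, Neurog2, Otx2 and Pax6. The ranges of Olig2 and Sox1 overlapped, as did those of Neurog2 and Otx2 and of Otx2 and Pax6, so these neighbours did not differ beyond the spread between libraries. In WT the order was Nes, Neurog2, Olig2, Sox1, Otx2 and Pax6, and no range overlapped that of its neighbour. Neurog2 thus stood second lowest in WT and among the highest of the set in Del8.

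**Figure D1:**
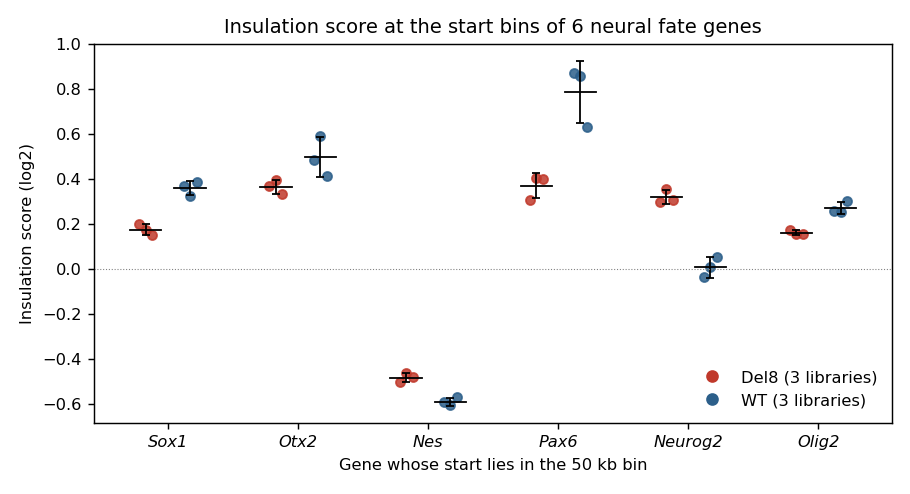
Insulation score (log2, y axis) of the 50 kb bin that holds the start of each of 6 neural genes (x axis), with a point per library, Del8 (red) left of WT (blue), and the mean and SD of 3 libraries as bars. Pax6 shows the widest gap, -0.42, and Neurog2 the widest gap in the other direction, 0.31.

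The same measure was then followed along each window. Of 287 bins in the 7 windows 193 had a score, of which 53 were higher and 72 lower in Del8 (limma, adjusted p under 0.05), 27.5% and 37.3% of them. Over all bins with a score the shares were 30.6% and 27.4%, so called bins were common everywhere. Squares of adjacent bins overlap, so these bins are not independent and changes came in runs. Around Sox1 the score was lower over 8 bins from 250 kb below to 100 kb above the gene, where below means toward lower and above toward higher coordinates, and higher over the 5 bins from 550 to 350 kb below it. The largest fall lay 50 kb below Sox1, in a bin without a protein-coding gene that scored 0.29, 0.25 and 0.24 in Del8 and 0.46, 0.47 and 0.48 in WT (difference -0.21, limma adjusted p = 0.000301). The largest rise of that window lay 450 kb below Sox1, at 11900001 to 11950000, a bin that overlaps no protein-coding gene. It scored 0.04, 0.08 and 0.06 in Del8 and -0.29, -0.21 and -0.24 in WT, a difference of 0.31 (SE 0.0288, limma adjusted p = 0.000106). On their own maps all 3 WT libraries had a local minimum of the score (prominence 0.2 or more) 550 or 600 kb below Sox1, where the bins hold parts of Arhgef7 or Tex29, and another 350 or 400 kb above it. No Del8 library had such a minimum at either place. At 600 kb below Sox1 the scores were -0.35, -0.33 and -0.33 in Del8 and -0.36, -0.43 and -0.45 in WT, a difference of 0.07 that did not pass (limma adjusted p = 0.0749). At 350 kb above Sox1 the scores themselves were -0.36, -0.31 and -0.29 in Del8 and -0.33, -0.31 and -0.24 in WT, so the dip there was as low in Del8, and what was lower was the score beyond it. At 600 kb above the gene it was -0.22, -0.18 and -0.18 in Del8 and 0.02, -0.03 and -0.02 in WT (difference -0.18, limma adjusted p = 0.000818). The nearest border shared by the lines on the lower side lay 900 kb from Sox1, in the bin of Naxd and Rab20, with a minimum within a bin of it in all 3 Del8 libraries and in 2 WT libraries. At 850 kb the score was -0.50, -0.49 and -0.49 in Del8 and -0.30, -0.35 and -0.36 in WT, and the difference of -0.16 passed (limma adjusted p = 0.00153). The border 1 Mb above Sox1 was called in all 6 libraries and had overlapping scores.

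At Pax6 the window divided at about 350 kb below the gene. All 13 bins from 1000 to 400 kb below it were higher in Del8 and all 8 bins from 300 kb below to 50 kb above it were lower. The largest rise lay 800 kb below Pax6 in a bin of Ccdc73, with -0.27, -0.24 and -0.20 in Del8 and -0.74, -0.62 and -0.64 in WT (difference 0.43, SE 0.0387, limma adjusted p = 9.03e-05). The largest fall was 50 kb above the start, inside Elp4, the neighbouring gene known to hold enhancers of Pax6. It had 0.44, 0.49 and 0.50 in Del8 and 1.07, 1.01 and 0.74 in WT (difference -0.46, SE 0.0776, limma adjusted p = 0.00143). Low and high stretches of the Pax6 window were thus less far apart in Del8. The border 1 Mb below Pax6, in the bin of Cstf3 and Tcp11l1, scored -0.46, -0.42 and -0.45 in Del8 and -0.71, -0.67 and -0.64 in WT (difference 0.23, limma adjusted p = 0.000489). Of the whole window, 19 of the 41 bins had no score.

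At Neurog2 the whole scored stretch was higher in Del8. Of 13 bins with a score 12 were higher, from 500 kb below to 50 kb above the gene, and the remaining bin did not pass. The largest rise was in the bin next to the gene, 50 kb below, with Larp7, which binds the 7SK RNA, and Zgrf1. All 3 WT libraries had a border there. It scored 0.31, 0.41 and 0.29 in Del8 and -0.10, -0.01 and -0.04 in WT, a difference of 0.39 (SE 0.0388, limma adjusted p = 0.000136). A local minimum was still called at this bin or at the Neurog2 bin in every Del8 library, at a higher level. A second border 450 kb below, within Ank2, scored 0.12, 0.16 and 0.34 in Del8 and -0.12, -0.16 and -0.15 in WT (difference 0.35, limma adjusted p = 0.000912). Del8 replicate 3 was the highest there and had no border of its own at that place.

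Around Nes, 10 bins from 100 kb below to 350 kb above the gene were higher in Del8. The bin 150 kb above Nes had -0.12, -0.12 and -0.15 in Del8 and -0.53, -0.47 and -0.45 in WT, a difference of 0.35 (limma adjusted p = 7.99e-05). The border 300 kb above, with Cct3 and Tsacc, rose by 0.21 (limma adjusted p = 0.00192). The largest rise of the window was a border 950 kb below Nes, in the bin of Cd1d1. It was called in all 3 WT libraries and in no Del8 library, and scored 0.18, 0.22 and 0.27 in Del8 and -0.23, -0.25 and -0.09 in WT (difference 0.42, SE 0.0460, limma adjusted p = 0.000213). Nes also had lower stretches, and of its 41 bins 13 were higher and 12 lower. The score was lower over the 7 bins from 600 to 300 kb below the gene, with differences down to -0.24, and over the 5 bins from 600 to 800 kb above it. The largest fall lay 700 kb above Nes in the bin of Khdc4 and Rxfp4, with -0.49, -0.48 and -0.43 in Del8 and 0.02, -0.22 and -0.15 in WT (difference -0.35, SE 0.0567, limma adjusted p = 0.00120).

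Lower bins outnumbered higher ones at Otx2 and Olig2. At Otx2 20 of 35 scored bins were lower and 2 higher, and the largest fall, -0.28, was 600 kb above the gene in Slc35f4, with -0.27, -0.33 and -0.26 in Del8 and 0.10, -0.17 and 0.06 in WT (limma adjusted p = 0.00659). The nearest border below Otx2, 300 kb away, was called in all 6 libraries within a bin and had overlapping scores. That 550 kb above it, in the bin of ccdc198, scored -0.80, -0.80 and -0.64 in Del8 and -0.58, -0.86 and -0.59 in WT, which overlapped. All 3 Del8 libraries but only 1 WT library had a minimum within a bin of it, and WT replicates 1 and 3 had theirs 450 kb above Otx2. The largest rise, 0.12, was at the lower end of the window, 1 Mb below Otx2 in Ktn1 (limma adjusted p = 0.0121). At Olig2 15 of 41 bins were lower, 6 were higher and 20 did not pass. Of the lower bins 10 ran from 400 kb below to 50 kb above the gene. The border 200 kb below Olig2, with Paxbp1 and Synj1, was deeper in Del8. It scored -0.33, -0.31 and -0.36 in Del8 and -0.13, -0.18 and -0.10 in WT, a difference of -0.20 (SE 0.0300, limma adjusted p = 0.000884). On the other side the change went the opposite way: the 6 bins from 250 to 500 kb above were higher. The border there, 500 kb above Olig2 with Cryzl1 and Itsn1, scored -0.49, -0.49 and -0.52 in Del8 and -0.58, -0.73 and -0.64 in WT (difference 0.15, limma adjusted p = 0.0157), and the bin of Gart and Son, 400 kb above Olig2, had -0.35, -0.36 and -0.35 in Del8 and -0.55, -0.66 and -0.57 in WT (difference 0.24, limma adjusted p = 0.000670). Of the 1391 borders of the autosomes 47% rose and 13.2% fell, so the fall at the lower Olig2 border was the less common direction.

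**Figure D2:**
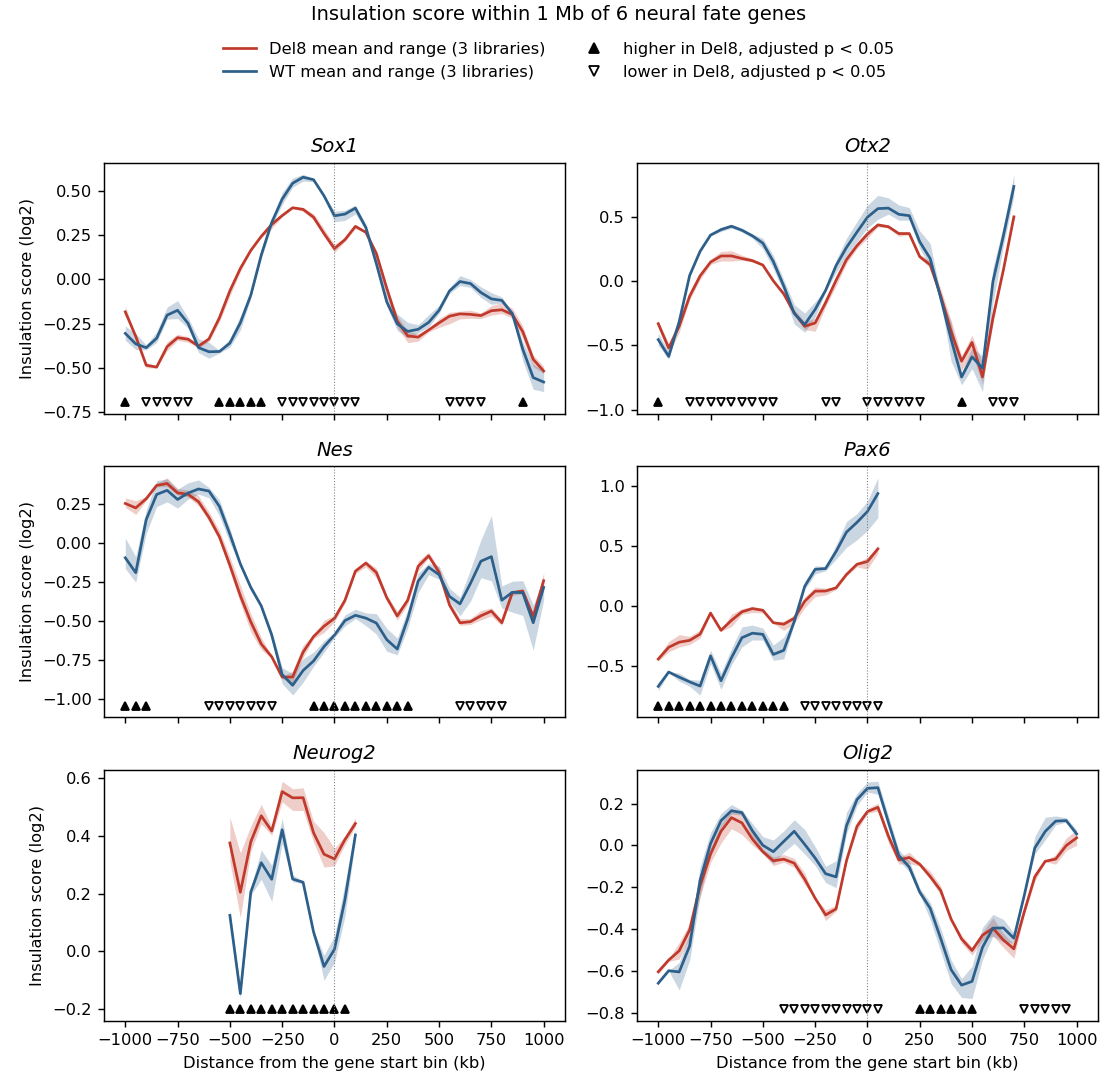
Insulation score (log2, y axis) against distance from the start bin of the gene (kb, x axis) for 6 neural genes. Lines are means and bands ranges of 3 libraries, Del8 in red and WT in blue, and triangles mark bins past the limma threshold. Sox1 shows the rise 450 kb below the gene (0.31), Pax6 rises on the far lower side and falls at the gene, and at Neurog2 12 of 13 bins are higher in Del8.

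Single contacts of the gene bins were read next. Of 213 pairs of a start bin with a covered bin up to 1 Mb away, 155 had a mean count of at least 10 and were tested. In Del8 1 was higher and 3 were lower (edgeR quasi-likelihood test, Benjamini-Hochberg adjusted p under 0.05), against 0.618% higher and 0.529% lower of all 330796 pairs. At an unadjusted p under 0.05 there were 15 higher and 14 lower. With so few pairs the counts do not set the genes apart from other bins. The pairs that passed belonged to Sox1, Nes and Pax6. At Otx2, Neurog2, Olig2 and Neurod1 edgeR called 0 pairs, with 1, 1, 3 and 0 at an unadjusted p under 0.05.

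Sox1 lost a contact with a gene-free stretch 400 kb below it, at 11950001 to 12000000. Raw counts were 114, 78 and 72 in Del8 and 79, 96 and 109 in WT. Yet Del8 replicates 1 and 2 held more contacts between bins than any WT library, and Del8 replicate 3 about as many as WT replicate 3. Over the mean of the chromosome at that distance, contact was 1.35, 1.28 and 1.38 in Del8 and 2.07, 2.47 and 2.24 in WT. The WT libraries shared a peak of Sox1 contact there that no Del8 library reached, and the log2 fold change was -0.80 (SE 0.142, edgeR adjusted p = 0.00147). It passed in every fit without 1 library (edgeR adjusted p up to 0.0241) and with WT replicate 3 alone. In the other direction, contact of Sox1 with the bin of Arhgef7, a guanine nucleotide exchange factor gene 650 kb below, had counts of 105, 77 and 63 in Del8 and 18, 34 and 29 in WT. Observed over expected contact was 1.76, 1.74 and 1.79 in Del8 and 0.838, 1.42 and 0.957 in WT. The groups did not overlap, with a log2 fold change of 0.84 (SE 0.210, edgeR adjusted p = 0.0303), but the pair passed only without WT replicate 2 (edgeR adjusted p = 0.0182) and not without any 1 of the other 5 libraries (0.0823 to 0.133), and it did not pass with WT replicate 3 alone (0.117).

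The stretch 400 kb below Sox1 lost contact beyond the gene as well. With the bins 50, 150, 200 and 250 kb above Sox1, of which the last 2 hold Spaca7, a gene of the sperm acrosome, the log2 fold changes were -1.05, -1.22, -1.17 and -1.04. The edgeR adjusted p ran from 0.000468 for the bin at 200 kb to 0.00359 for that at 150 kb. For the bin at 200 kb counts were 59, 46 and 42 in Del8 and 55, 49 and 96 in WT, and observed over expected contact was 1.16, 1.19 and 1.29 in Del8 and 2.60, 2.07 and 3.17 in WT. All 5 contacts of this stretch, that with Sox1 included, passed in every fit without 1 library, and 4 of them with WT replicate 3 alone, where the contact with the bin 250 kb above Sox1 did not (edgeR adjusted p = 0.0677). The bin 150 kb below Sox1 gained contact with the bins 650 and 700 kb below the gene (log2 fold changes 1.15 and 1.31, edgeR adjusted p = 0.00465 and 0.00591, and 0.0530 for the second without Del8 replicate 1). With WT replicate 3 alone neither passed (edgeR adjusted p = 0.151 and 0.0897). Counts for the pair with 700 kb were 73, 44 and 49 in Del8 and 12, 13 and 15 in WT. Of the 6 pairs of the window that gained contact, 3 joined bins on either side of the WT border 550 to 600 kb below Sox1 and 2 began at it. Summed by distance, the lower side of Sox1 at 250 to 500 kb had 1.33, 1.24 and 1.36 times the expected contact in Del8 and 1.54, 1.72 and 1.65 times in WT. The upper side at that distance had 1.28, 1.24 and 1.32 in Del8 and 1.10, 1.12 and 1.22 in WT, so the sides differed in opposite directions without overlap. Such sums by distance, here and below, were not tested, and only some of them are given. How many of all bins lack overlap in such sums was not computed.

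Nes lost contact with the bin 100 kb above it, which holds Iqgap3, Naxe and Ttc24. Counts were 183, 124 and 85 in Del8 and 116, 126 and 158 in WT, and observed over expected contact was 0.846, 0.814 and 0.629 in Del8 and 1.25, 1.11 and 1.26 in WT. The log2 fold change was -0.66 (SE 0.125, edgeR adjusted p = 0.00301), and it passed in every fit without 1 library. Farther out, at 250 to 500 kb on both sides together, Nes had more contact in Del8. Observed over expected contact there was 0.808, 0.857 and 0.807 in Del8 and 0.553, 0.597 and 0.624 in WT. At 550 kb to 1 Mb the groups overlapped, with 0.486, 0.483 and 0.526 in Del8 and 0.466, 0.424 and 0.606 in WT. In the same window, the bin of Iqgap3 gained contact with that of Smg5 and Glmp 350 kb above Nes, across the border at 300 kb. Its counts were 82, 67 and 62 in Del8 and 22, 18 and 24 in WT (log2 fold change 1.06, edgeR adjusted p = 0.00793, 0.0510 without Del8 replicate 3 and 0.113 with WT replicate 3 alone).

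Pax6 lost contact with a bin 350 kb below it inside Them7, with counts of 54, 51 and 30 in Del8 and 31, 57 and 57 in WT. Observed over expected contact was 1.09, 1.37 and 1.01 in Del8 and 1.29, 2.15 and 1.92 in WT, so the groups overlapped on this scale (log2 fold change -0.83, SE 0.214, edgeR adjusted p = 0.0368). It passed without WT replicate 1 (edgeR adjusted p = 0.0127) and not without any 1 of the other 5 libraries (0.0547 to 0.215), nor with WT replicate 3 alone (0.167). The Pax6 bin's own contact with the bin of Dcdc5, 400 kb above, did not pass (log2 fold change -0.94, edgeR adjusted p = 0.0699). The bins 50 and 300 kb below Pax6 did lose contact with that Dcdc5 bin. The bin 50 kb below Pax6 had 18, 15 and 9 contacts with it in Del8 and 23, 23 and 21 in WT (log2 fold change -1.46, SE 0.324, edgeR adjusted p = 0.0131). It passed without Del8 replicate 2 or WT replicate 3 and not without any 1 of the other 4 libraries (edgeR adjusted p from 0.0585 to 0.0854), nor with WT replicate 3 alone (0.338). A rise between bins 150 and 300 kb above Pax6, with 22, 22 and 14 contacts in Del8 and 0, 0 and 7 in WT, passed with edgeR (log2 fold change 2.37, adjusted p = 0.0289). It rests on WT replicates 1 and 2 and passed only without WT replicate 3, where the fold has no WT contact behind it. With WT replicate 3 alone the log2 fold change was 0.98 (edgeR adjusted p = 0.566).

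At Otx2, Olig2, Neurog2 and Neurod1 the contacts with the smallest unadjusted p are given as values, since none passed. The Otx2 bin had 28, 10 and 14 contacts with a bin 400 kb below in Del8 and 2, 4 and 4 in WT (log2 fold change 1.60, edgeR adjusted p = 0.102). Summed over 550 kb to 1 Mb on its lower side, Otx2 had 0.705, 0.751 and 0.626 times the expected contact in Del8 and 0.969, 1.04 and 1.03 times in WT, which did not overlap. Most of the 9 bins in that sum lay under the mean count of 10. For this and the other sums in this paragraph no share over all bins is known, so they do not set these genes apart. Olig2 had 253, 165 and 152 contacts with the next bin above it in Del8 and 142, 148 and 145 in WT (log2 fold change -0.27, edgeR adjusted p = 0.230). On its lower side at 250 to 500 kb, beyond the border, Olig2 had 0.586, 0.539 and 0.606 times the expected contact in Del8 and 0.753, 0.750 and 0.802 times in WT. That band did not overlap, while the upper side of Olig2 at the same distance did. The Neurog2 bin had 38, 20 and 29 contacts with the bin 300 kb above in Del8 and 30, 29 and 33 in WT (log2 fold change -0.74, edgeR adjusted p = 0.140). Its contact on the lower side at 250 to 500 kb was 1.04, 1.25 and 1.11 times the expected in Del8 and 0.813, 0.891 and 1.01 times in WT, which did not overlap, while the upper side of Neurog2 at that distance did. Neurod1 had 54, 53 and 31 contacts with the bin 100 kb above it in Del8 and 37, 29 and 49 in WT (log2 fold change -0.37, edgeR adjusted p = 0.468), and only 5 of its pairs could be tested.

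**Figure D3:**
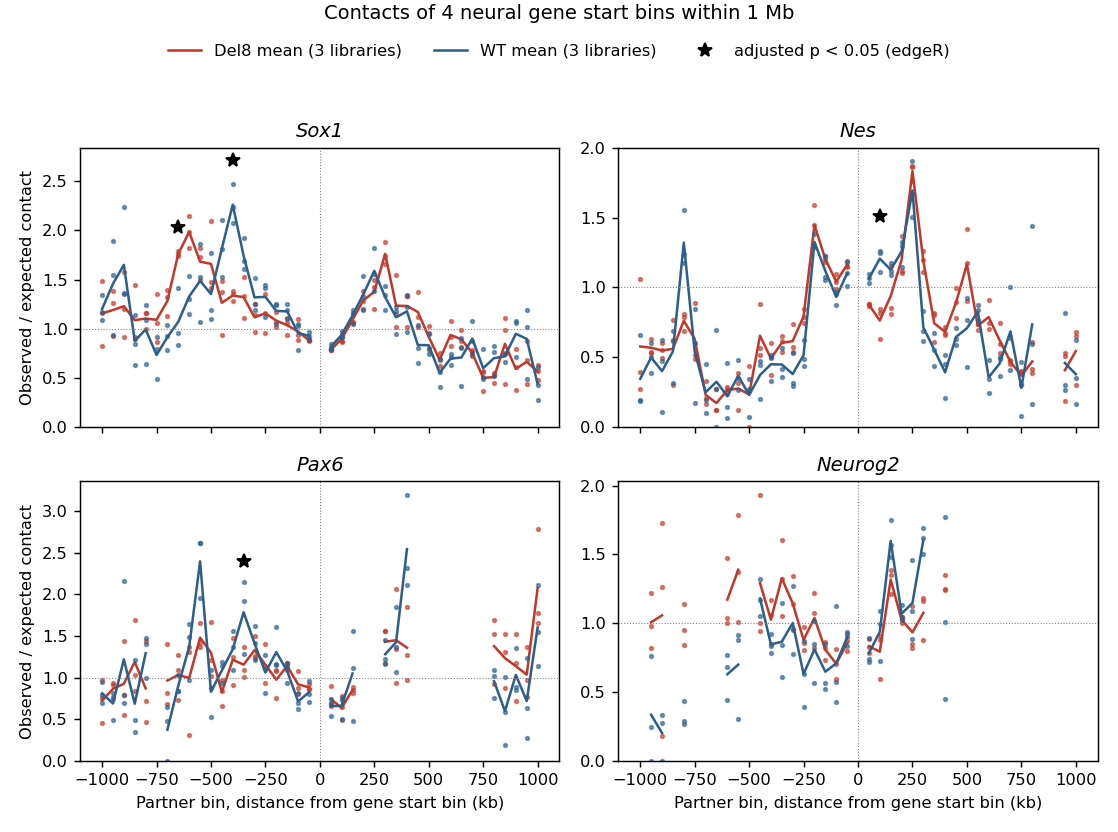
Observed over expected contact (y axis) of the start bins of Sox1, Nes, Pax6 and Neurog2 with each covered bin up to 1 Mb away (kb, x axis). Points are libraries and lines means of 3, Del8 in red and WT in blue, gaps are bins without cover, and stars mark pairs past the edgeR threshold. The WT peak 400 kb below Sox1, 2.07 to 2.47, is at 1.28 to 1.38 in Del8.

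Over all pairs inside the windows, 2274 were tested and 26 passed, 11 higher and 15 lower in Del8 by the edgeR test, near the shares over all pairs. They were 6 higher and 8 lower at Sox1, 3 and 3 at Nes, 1 and 3 at Pax6 and 1 and 1 at Olig2. At Otx2, Neurog2 and Neurod1 edgeR called 0 of 358, 154 and 22 pairs, with 46, 18 and 1 at an unadjusted p under 0.05. With WT replicate 3 alone, 3 of the 22 called pairs that did not involve a gene bin still passed. With 100 kb bins, which pool counts, 6.68% of 102472 pairs were higher and 5.64% lower in Del8, and of the pairs of the 7 gene bins 10 were higher and 8 lower. Of 20 pairs tested at Sox1, 4 were higher and 2 lower, and of 19 at Nes 5 and 1. Of 13 pairs tested at Pax6, 0 were higher and 3 lower. At Neurog2 it was 1 and 0 of 7 pairs, and at Olig2 0 and 2 of 20. At Otx2 0 of 15 pairs passed, and at Neurod1 no pair could be tested.

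At this width the Sox1 bin gained contact with that of Arhgef7 600 kb below, with 388, 304 and 242 contacts in Del8 and 84, 117 and 139 in WT (log2 fold change 0.72, SE 0.108, edgeR adjusted p = 5.05e-06). It lost contact at 400 kb below, with 487, 357 and 264 in Del8 and 243, 298 and 374 in WT (-0.43, edgeR adjusted p = 0.000290). The Pax6 bin lost contact with the bin of Dcdc5 and Dnajc24 400 kb above (102, 93 and 75 in Del8 and 80, 87 and 93 in WT, log2 fold change -0.70, edgeR adjusted p = 0.00114). The Neurog2 bin gained contact with a bin 600 kb below, with 81, 44 and 49 contacts in Del8 and 16, 18 and 21 in WT (log2 fold change 0.84, SE 0.244, edgeR adjusted p = 0.0164). Both called pairs of Olig2 were losses on its lower side, beyond the border that was deeper in Del8. Toward the bin of Cfap298, 300 kb below, counts were 158, 114 and 72 in Del8 and 75, 102 and 117 in WT (log2 fold change -0.49, edgeR adjusted p = 0.0161).

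**Figure D4:**
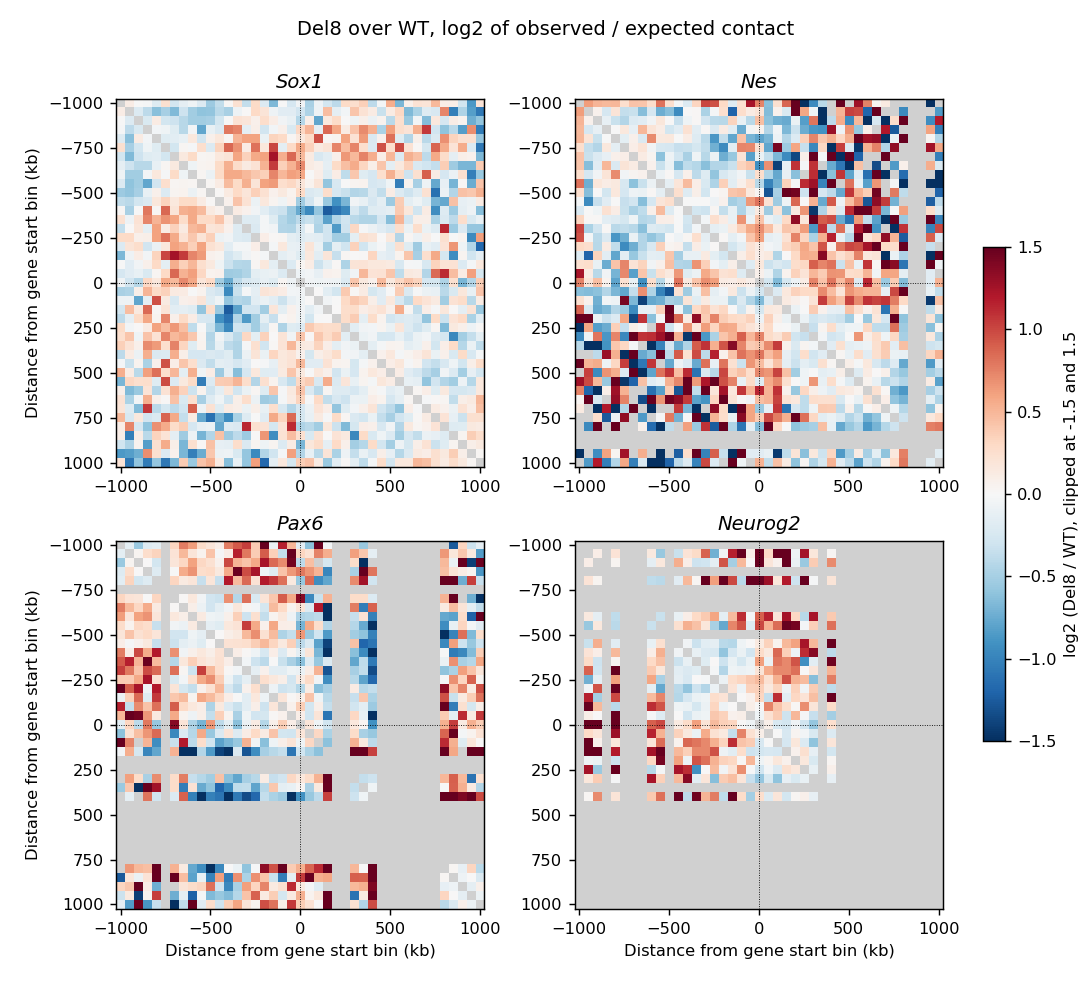
Change of contact between all pairs of bins within 1 Mb of Sox1, Nes, Pax6 and Neurog2, as log2 of mean observed over expected contact in Del8 over that in WT (colour, clipped at 1.5). Both axes are distance from the start bin of the gene in kb, and grey bins were not covered. Blue at 400 kb below Sox1 meets bins up to 250 kb above the gene, and red at 650 to 700 kb below marks the gains. For the called pairs of the blue bin the edgeR log2 fold changes, fitted to counts and not the plotted ratio, were -0.80 to -1.22.

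Contacts were last summed per locus. Contact spanning the gene bin, as the mean over pairs up to 1 Mb apart with the bin between them, was 1.15, 1.11 and 1.12 times the expected at Pax6 in Del8 and 1.61, 1.56 and 1.35 times in WT. At Neurog2 it was 1.17, 1.22 and 1.17 in Del8 and 0.913, 0.897 and 0.833 in WT. With the looser screen the Neurog2 difference was of the opposite sign, -0.460, as were those of its gene bin's contact and of its whole window, -0.743 and -0.832. At Sox1 it was 1.27, 1.26 and 1.23 in Del8 and 1.35, 1.33 and 1.34 in WT. At these 3 loci the groups did not overlap (exact permutation, two-sided, p = 0.10 at each, which is the floor for 3 against 3). Over all bins 62.5% did not overlap by this measure, 35.5% with every Del8 library higher and 27.1% with every Del8 library lower. The direct contact of the gene bin with bins 100 kb to 1 Mb away moved less: at Pax6 it was 1.18, 1.08 and 1.13 in Del8 and 1.14, 1.19 and 1.12 in WT, and at Sox1 the groups overlapped as well. Among these 3 the groups were apart by this measure only at Neurog2, with 1.07, 1.02 and 1.11 in Del8 and 0.759, 0.873 and 0.944 in WT. They were also apart at Otx2 and Olig2, lower in Del8 at both. Over all bins 34.7% did not overlap, 19.4% higher and 15.3% lower in Del8. The Neurog2 bin is followed further by distance. On its lower side at 550 kb to 1 Mb the Neurog2 bin had 66, 32 and 41 contacts over 5 covered bins in Del8 and 7, 12 and 16 in WT. Observed over expected contact there was 1.26, 0.831 and 1.27 in Del8 and 0.273, 0.518 and 0.526 in WT. These 5 pairs all lay under the mean count of 10 and were not tested. No bin of the upper side was covered at that distance, so the sides could not be compared. The mean over all pairs of the window did not overlap between the groups at Sox1, Otx2, Olig2 and Neurog2, lower in Del8 at the first 3 and higher at Neurog2, against 64.4% of all bins without overlap, 37.4% higher and 27.1% lower. It was 1.13, 1.17 and 1.15 at Neurog2 in Del8 and 0.992, 0.973 and 0.977 in WT. At Sox1 it was 1.09, 1.10 and 1.10 in Del8 and 1.12, 1.13 and 1.12 in WT, and this difference was of the opposite sign on unbalanced maps. Nes sent 47.9%, 49.5% and 48.8% of its contact to lower coordinates in Del8 and 44.4%, 47.1% and 44.6% in WT, without overlap, as in 38.7% of all bins. Of 28 values, 4 measures at 7 loci, 11 did not overlap between the groups, and the smallest exact permutation p adjusted over the 28 was 0.255. At Neurod1 the spanning contact rested on 10 pairs, at 3.40, 3.51 and 3.01 in Del8 and 2.66, 3.09 and 2.61 in WT, which overlapped.

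**Figure D5:**
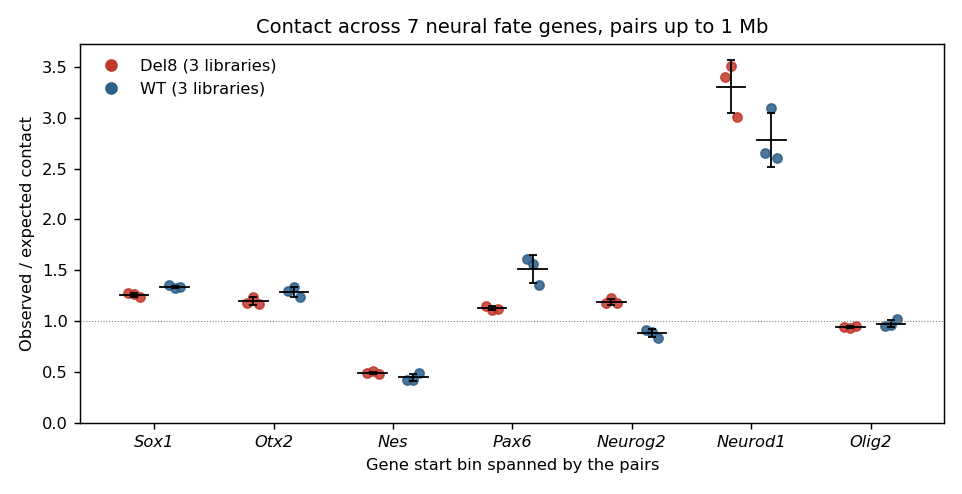
Observed over expected contact (y axis) of pairs up to 1 Mb apart that span the start bin of each of 7 neural genes (x axis), with a point per library, Del8 (red) left of WT (blue), and the mean and SD of 3. Pax6 is lower in Del8 (1.11 to 1.15 and 1.35 to 1.61 in WT) and Neurog2 higher (1.17 to 1.22 and 0.833 to 0.913 in WT), while the Neurod1 values rest on 10 pairs.

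A list of 74 other neural genes gave the setting for the 7. Of these 56 had a score, in 55 bins, since Zic2 and Zic5 share a bin. In Del8 13 were higher, 15 were lower and 28 did not pass (limma). Thus 50% passed, against 58% of all bins with a score. Of the 56, 42 were read at a start from the promoter table. The others were read at their lower coordinate, which for a gene on the minus strand is its far end. Their median difference was -0.0011, and that of all bins 0.0055. The median size of the difference was 0.16 for the 6 scored neural fate genes, 0.10 for the list and 0.11 for all bins. The largest rises in the list were at Sox21, a SoxB2 factor (0.35, limma adjusted p = 4.63e-05), Lmx1a, a LIM homeodomain factor of dopaminergic precursors (0.30), and Dll3, a Notch ligand (0.26). The largest falls were at Pax2, a paired-box factor of the midbrain-hindbrain border (-0.34), Neurod6, a relative of Neurod1 (-0.28), and Nkx6-2, a homeodomain factor of the ventral neural tube (-0.26). Olig1, which lies next to Olig2 and shares most of its square, scored 0.18, 0.16 and 0.20 in Del8 and 0.28, 0.24 and 0.31 in WT. Among protein-coding genes on other chromosomes, the start bins with scores most like those of the neural genes over the 6 libraries (smallest Euclidean distance) were those of Slc1a2 for Sox1 (0.0455), Cdc42ep3 for Pax6 (0.0830), Mdn1 for Neurog2 (0.0778), Irf2bp2 for Olig2 (0.0435), Adgrb1 for Nes (0.0534) and 4930583I09Rik for Otx2 (0.0760).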

How the data were processed

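For each library the authors deposited a table of raw counts of contacts between 50 kb bins of 1 chromosome, on mm10 according to the submitters' processing notes. Which aligner, read-pair filters and binning tool they used is not given in the sources used here. Same-bin counts were all even, as if each contact within a bin had been counted from both ends, and they entered no measure. Groups and replicate numbers came from the titles.

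Coverage was scaled per library, and a bin was usable where every library reached 0.5 of the third highest of the 6 and 0.1 of its own scale. Maps of usable autosomal bins were balanced by iterative correction per chromosome, without the diagonal. Insulation scores used a 500 kb square with at least 50% of its pairs usable. A border was a local minimum of the score whose prominence reached 0.2. Expected contact was the library's mean for that distance and chromosome.

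Scores of all bins were tested with limma 3.58.1 (trend), and counts of all pairs from 50 kb to 1 Mb apart with a mean count of 10 or more with the quasi-likelihood test of edgeR 4.0.16, with offsets for library, chromosome and distance, in R 4.3.3. Both used Benjamini-Hochberg adjustment and a threshold of 0.05. Single values per locus were compared by two-sided exact permutation. Scripts were tested on simulated data. Alternatives were other squares, a looser screen, unbalanced maps, centred libraries, TMM factors, DESeq2 1.42.0, no count filter, 100 kb bins, a replicate block, each library left out, and WT replicate 3 alone on the WT side.

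The labels' replicate numbers did not pair the libraries. Deviations from group means of same-numbered libraries correlated at -0.10, -0.03 and -0.18 for scores.

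All pairs of libraries differed by more than sampling noise (chi-square per degree of freedom at least 1.69). The value was 1.69 to 2.04 between Del8 libraries and 4.31 to 6.26 between WT libraries. Each library was counted as a replicate, as labelled. Such an excess can also come from library preparation, so it does not show that the cultures were separate. The median count per usable bin was 1486 to 2430 in Del8 and 1045 to 1435 in WT, and single pairs at long range held few contacts. Read pairs are not known to be deduplicated, so counts bound the precision only roughly.

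The 7 genes, the list of 74 neural genes and the tests were chosen with earlier results of these data known. All 7 genes are named whatever their values. In each window the nearest borders, the bins with the largest rise and fall that passed, the 2 largest called rises and falls of each gene's contacts, the most alike gene by the 6 scores, and the 3 largest changes of the list are named, with further bins and pairs chosen after their values were seen. Of the Nes window 1 border is not reported here. Gene positions are from RefSeq, and starts with strand from its promoter table, which covers 79.6% of autosomal protein-coding genes. Genes without an entry there were placed at their lower coordinate whatever their strand.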

Additional observations from a re-analysis of the deposited data

How the results depend on the processing

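At Sox1, Pax6, Neurog2 and Olig2 the score kept its direction and passed the limma threshold without each library in turn, without balancing, with a 250 kb square, with library medians at 0, with the replicate block and with WT replicate 3 alone on the WT side, and also with a 1 Mb square at Sox1, Pax6 and Olig2, while Neurog2 had no score there. The last of these fits takes its spread from Del8 alone. The calls at Otx2 and Nes depended on the setting, as given with their values above. A looser screen that keeps partly lost bins ended every call: limma called 0 bins higher and 0 lower, against 7213 and 6451, with 2474 and 2170 at an unadjusted p under 0.05, and 0 and 0 of the neural gene bins. The cause was not tested. There the Otx2 difference was 0.50, the Sox1 window value 0.0040, and at Neurog2 the gene bin's contact, the spanning contact and the window value were -0.743, -0.460 and -0.832, all opposite in sign to the reported ones, and 4 of 28 locus values did not overlap, against 11. On unbalanced maps the Sox1 window value was 0.0344, also opposite in sign.

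Of the neural gene bins, 1 was higher with a 250 kb square, 0 with a 1 Mb square and 1 with WT replicate 3 alone, against 2. Without each library in turn the number higher was 2 in every fit and the number lower 3 to 4, the bins of all autosomes 6045 to 7566 higher and 5140 to 6478 lower, and the locus values without overlap 12 to 16. Leaving out a library cannot make groups overlap that were apart, so this last count could not fall below 11.

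Against 3794 called pairs, 53.9% of them higher in Del8, there were 2428 with the replicate block, 12630 with 100 kb bins, 753 with WT replicate 3 alone and 1071 with DESeq2, of which 41.8% were higher. Leaving out each library gave 738 to 4781, lowest without Del8 replicate 1 and highest without WT replicate 3. Of the gene bins' own pairs, 4 as reported, 2 passed with balance factors in the offsets, 2 with WT replicate 3 alone, 2 with DESeq2, 18 with 100 kb bins and 2 to 4 without each library. Of all pairs inside the windows, 26 as reported, 8 passed with WT replicate 3 alone, 14 with DESeq2, 104 with 100 kb bins and 10 to 43 without each library. Since the replicate numbers did not pair the libraries, the fit with the block is given only as counts, 3 of the gene bins' own pairs and 23 inside the windows, and the neural gene bins stayed at 2 higher and 4 lower in it.

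WT replicates 1 and 2 are the shallowest libraries, and 38.1% and 38.7% of their bins had lost coverage, so differences in the gaps of the Pax6, Neurog2 and Neurod1 windows were not measurable.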
